A study of Mus musculus with 26 samples.

Results

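The transcripts of 10 ATP-dependent chromatin remodeller genes were followed from the mouse MII oocyte, the egg arrested at the second meiotic metaphase, to the one-cell embryo. The 10 were chosen by symbol: every row of the deposited table of gene counts whose Ensembl identifier carries 1 of the listed names in GENCODE vM21, which found 10 of 55401 rows. All 10 passed the filter on low counts in every fit. Of these, 6 encode subunits of the SWI/SNF (BAF) complex, Smarca4, Smarcb1, Smarcc1, Smarcd1, Arid1a and Arid1b. Chd1 and Chd4 belong to the CHD family, and Smarca5 (ISWI) and Ino80 (INO80) are the motors of 2 further families, so the genes cover more than SWI/SNF and Chd alone.

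Remodellers use the energy of ATP to slide, evict or space nucleosomes. SWI/SNF complexes mainly open chromatin, ISWI enzymes space nucleosomes evenly, CHD enzymes do both and include the motor of the deacetylase complex NuRD, and INO80 also exchanges histone variants. The oocyte stores such transcripts for the embryo, which repackages the sperm genome and starts its own transcription while still 1 cell. Maternal Smarca4 protein (BRG1) is known to be needed for genome activation in the mouse.

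The study measured total RNA in 26 libraries, with embryos made by in vitro fertilisation between B6D2F1 hybrid mice from oocytes of superovulated 8-week-old females. Its 5 groups fall in a pair of separately numbered sets. The c-Myc set holds 7 libraries of untreated control embryos and 7 of embryos moved 2 h after sperm were added into medium with 10058-F4, a small molecule that inhibits c-Myc, for 10 h. The protocol also names a further c-Myc inhibitor, but the sample labels name 10058-F4 alone and give no dose. The amanitin set holds 4 libraries of unfertilised MII oocytes (B6D2F1, age 0 h), 4 of untreated control embryos and 4 of embryos kept for 10 h, from 1 h after mixing, in 100 µg/ml alpha-amanitin, which blocks RNA polymerase II. The embryos are labelled B6D2F1xB6D2F1 (F2) with an age of 10 h. Treatments of 10 h that start 1 h or 2 h after mixing would end later than that. Whether treated and control embryos, or the embryos of both treatments, were matched in age is therefore not known. The labels describe lysis of single-cell embryos, and do not say how many embryos or how many fertilisations each group came from, so p-values measure only the spread between these libraries. No group carries a genetic change, and the treatments act on the whole embryo. The counts give each transcript's share of a library, so the amount of RNA per embryo is not known. A transcript said to rise or fall changed in share, and a larger share can also arise when other transcripts are lost.

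Libraries of the c-Myc set held 20566278 to 27266040 counts, and those of the amanitin set 5371602 to 31540627. Alpha-amanitin replicate 3 was the shallowest and the least like its group, with a median Spearman correlation of 0.773 against the other libraries of that group. All 10 oocyte marker genes were detected in every group. The summed cumulus and granulosa markers reached 4.95 to 74.2 CPM (TMM-scaled CPM, which gives a gene's counts relative to library size) and the sperm markers 0 to 22.3 CPM, with Tnp1, Tnp2 and Smcp at 0 in every group. The summed markers of embryonic transcription were 13.5 to 31.8 CPM in the c-Myc set controls and 0.522 to 10.3 CPM with the inhibitor. In the amanitin set they were 14.5 to 83.4 CPM in controls, 0.735 to 16.8 CPM with alpha-amanitin and 1.49 to 4.88 CPM in oocytes.

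With edgeR and each set fitted on its own, the 2 members called in any comparison were Smarca4 and Arid1a, while Smarcb1, Chd1 and Chd4 were called by other tools or fits. The sequences before the start sites of Smarca4 and Arid1a are shown because the results turn on these genes. They come from RefSeq (GRCm38.p6), are the 250 bases before each listed start, read 5′ to 3′ on the gene's strand, and have CpG dinucleotides in capitals. Smarca4 starts at chr9:21616169 and its window is chr9:21615919-21616168 on the plus strand. Arid1a is on the minus strand, with a window at chr4:133756770-133757019 before the outermost start and another at chr4:133753986-133754235 before a start inside the gene.
Smarca4: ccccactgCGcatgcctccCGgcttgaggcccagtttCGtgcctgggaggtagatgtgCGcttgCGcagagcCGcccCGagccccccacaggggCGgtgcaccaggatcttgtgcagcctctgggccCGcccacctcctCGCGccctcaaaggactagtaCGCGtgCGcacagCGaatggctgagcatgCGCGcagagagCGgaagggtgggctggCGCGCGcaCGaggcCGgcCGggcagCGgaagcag
Arid1a, outer start: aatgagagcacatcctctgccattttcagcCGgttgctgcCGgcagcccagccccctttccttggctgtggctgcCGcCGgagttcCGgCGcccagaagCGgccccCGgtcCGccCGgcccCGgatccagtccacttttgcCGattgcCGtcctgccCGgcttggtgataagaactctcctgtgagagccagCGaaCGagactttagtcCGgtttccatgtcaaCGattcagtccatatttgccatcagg
Arid1a, inner start: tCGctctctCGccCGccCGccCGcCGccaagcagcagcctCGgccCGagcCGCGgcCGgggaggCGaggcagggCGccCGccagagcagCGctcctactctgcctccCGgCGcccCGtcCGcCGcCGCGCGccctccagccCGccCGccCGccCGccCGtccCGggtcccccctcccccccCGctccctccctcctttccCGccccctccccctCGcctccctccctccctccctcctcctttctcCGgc
The Smarca4 window held 25 CpG dinucleotides and 70.8% G and C. The outer Arid1a window held 18 and 61.2%, and the inner one 33 and 81.6%, against medians of 6 CpG and 52.4% over all 32851 promoter windows in the table. The letters CACGTG, the E-box recognised by c-Myc with its partner Max and the same on both strands, occurred in 0 of the 11 full windows of 300 bases matched to 9 of the members, and in 7.15% of all windows. Chd1 was not matched. A missing match says only that these letters are not in those windows.

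Levels between genes were compared per kilobase of annotated exon. In control embryos of the c-Myc set Arid1a, the subunit that marks the canonical BAF complex and binds DNA, stood highest at 166 ± 13.6 CPM per kb (SD, n = 7). Chd4, the NuRD motor, followed at 90.4 ± 9.31 CPM per kb. Arid1b, which takes the place of Arid1a in other BAF complexes, stood at 60.5 ± 3.79 CPM per kb. These 3 transcripts were the most abundant members in that group on the length-scaled measure.

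The motors Smarca5 (SNF2H) and Smarca4 were at 41.1 ± 6.15 and 36.7 ± 4.29 CPM per kb, and Ino80 at 20.5 ± 1.94. Chd1, a motor tied to active transcription, was at 9.36 ± 1.79 CPM per kb, the scaffold Smarcc1 at 7.98 ± 1.74, the core subunit Smarcb1 (SNF5) at 7.14 ± 1.24 and the accessory subunit Smarcd1 at 0.952 ± 0.496. The place of Smarcb1 rests on the length used: its exons together span 7930 bases but its principal transcript 1660, and on the latter it stood at 34.1 CPM per kb. Arid1a alone took 44.4 ± 1.40% of the members' counts in these embryos and 46.6 ± 1.95% in oocytes (n = 4). Together the 10 genes held between 0.369% (oocytes) and 0.445% (controls of the amanitin set) of all counts, as group means.

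Several members have a paralogue that can fill the same slot in the complex. Smarcd2 was at 25.1 ± 3.66 CPM per kb in control embryos of the c-Myc set, far above Smarcd1. Smarcc2 was at 20.3 ± 2.30 CPM per kb in the same embryos and 9.00 ± 3.33 in oocytes, where Smarcc1 was at 7.39 ± 0.812. Smarca2 (BRM), the alternative SWI/SNF motor, was at 29.9 ± 1.71 CPM per kb by exon length, below Smarca4, and at 72.1 against 37.4 CPM per kb by principal transcript, so that the order of this pair turns with the length used. The paralogues of Smarca5 and Chd4 were scarce: Smarca1 was at 0.0787 CPM per kb, and Chd3 and Chd5 were at 2.69 and 3.14.

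From oocyte to control embryo, Arid1a was the member called changed, and it rose. Its level was 1583, 1691, 1766 and 1667 CPM in the 4 oocyte libraries and 2247, 2481, 2239 and 2033 CPM in the 4 control embryos of the amanitin set. Every embryo was above every oocyte. The difference was 0.41 on the log2 scale (SE 0.11, 95% interval 0.18 to 0.64, adjusted p = 0.0448, edgeR quasi-likelihood test with Benjamini-Hochberg adjustment over 13133 genes). This made 1 of 10 members higher, against 1.11% of all tested genes, and 0 of 10 lower, against 1.78%. The call did not outlast the loss of a library: without any 1 of the 8 libraries of these groups the edgeR adjusted p lay between 0.0623 and 0.181, while the log2 difference stayed between 0.36 and 0.45. It was also lost with the replicate block (0.0891). Of the 8 alternatives that kept all of these libraries, 7 kept the call. They include the fit of these 8 libraries alone and the fit without alpha-amanitin replicate 3, both chosen after seeing the data.

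Smarcb1, which anchors the complex on the nucleosome, was lower in the embryo in each library but was not called. It stood at 99.4, 115, 102 and 147 CPM in oocytes and 52.6, 48.9, 80.0 and 28.2 CPM in control embryos. The groups did not overlap. The log2 difference was -1.15 (SE 0.36, 95% interval -1.91 to -0.40, edgeR adjusted p = 0.101). It was called with limma voom (adjusted p = 0.0219) and with 1 edgeR fit of all 5 groups (0.00681). Fits chosen after seeing the data also called it: edgeR on the 8 libraries of these groups alone (0.0358) and edgeR without alpha-amanitin replicate 3 (0.0237). That replicate lies outside this contrast but enters its estimate of spread. The other 4 of 8 alternatives did not call Smarcb1. Nor did any of the 8 edgeR fits that each left out a library of these groups (adjusted p = 0.053 to 0.28).

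Chd4 was at 346, 492, 396 and 544 CPM in oocytes and 620, 555, 601 and 731 CPM in control embryos. The groups were again separate, by a small gap. The log2 difference was 0.49 (SE 0.20, edgeR adjusted p = 0.241), and 1 edgeR fit of all 5 groups called it (adjusted p = 0.0431). Smarca5, which spaces nucleosomes, was at 184, 250, 201 and 250 CPM in oocytes and 300, 301, 254 and 320 CPM in control embryos. Its groups did not overlap either, and its log2 difference of 0.40 (SE 0.23) had an edgeR adjusted p of 0.538.

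Arid1b was at 691 to 707 CPM in oocytes and 725 to 910 CPM in embryos, the fifth member with separate groups, and differed by 0.22 (SE 0.16). The remaining 5 members had overlapping groups. Separate groups were thus found in 4 of 10 members with the embryos higher, beside 5.1% of all 13133 tested genes, and in 1 of 10 with the embryos lower, beside 9.34%. Smarca4 was at 131, 203, 164 and 165 CPM in oocytes and 195, 236, 124 and 221 CPM in control embryos, with a log2 difference of 0.21 (SE 0.21). Smarcc1, Smarcd1, Chd1 and Ino80 differed by -0.30, 0.89, 0.29 and -0.21 on the log2 scale, with standard errors of 0.39, 1.54, 0.51 and 0.23. The edgeR adjusted p was at least 0.735 for Arid1b and each of these 5 genes. Over the 10 members 7 log2 differences were above 0 and 3 below, with a median of 0.25 against -0.03 over all tested genes.

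**Figure D1:**
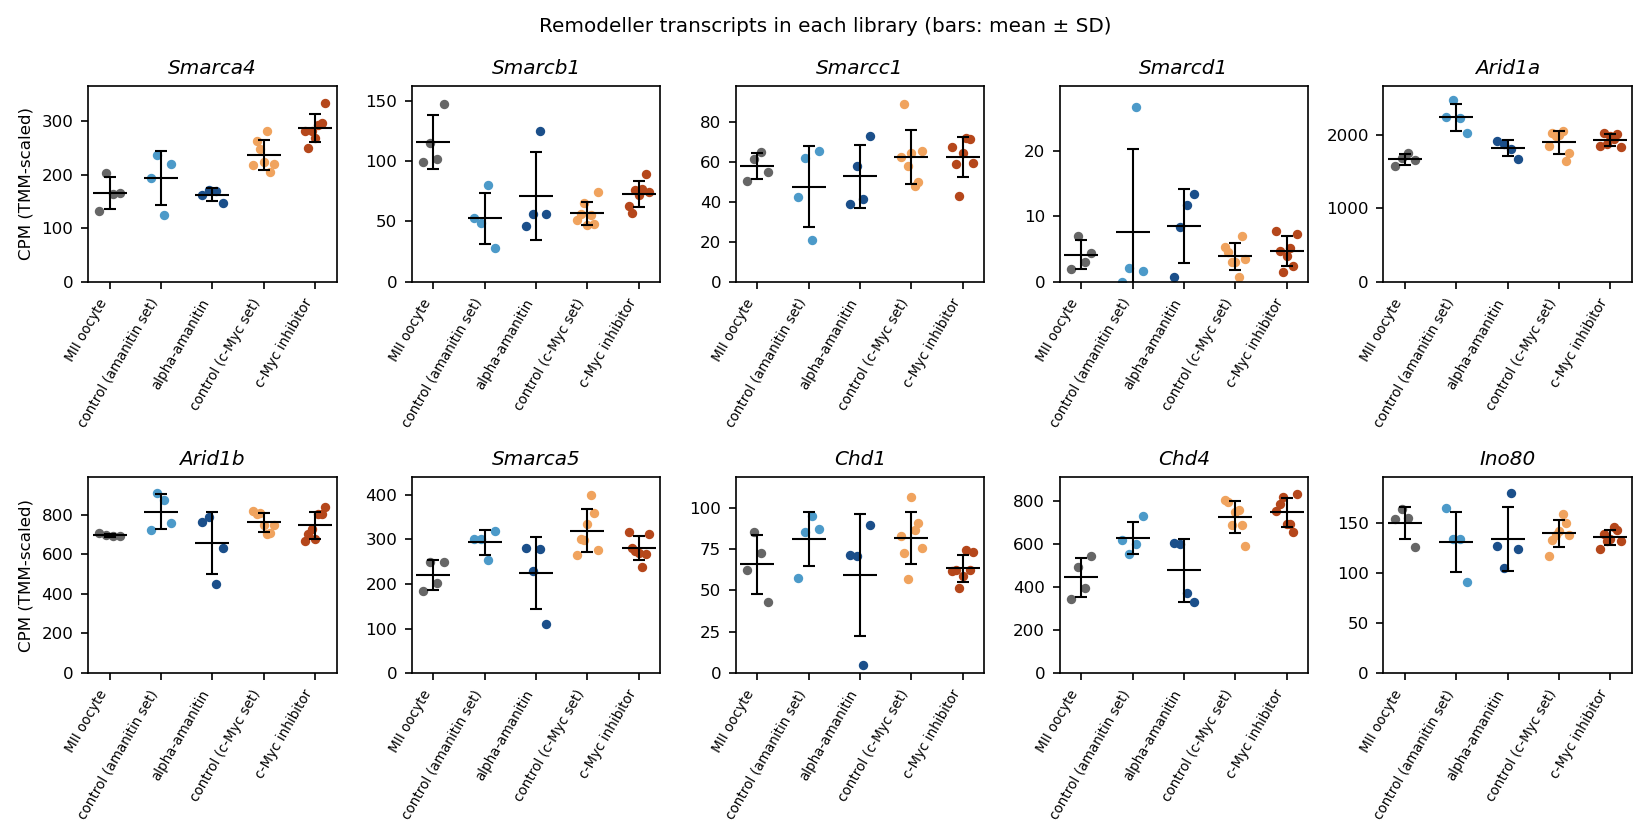
CPM of each member in each library (points), with the group mean and SD (bars), in oocytes and in the embryos of both sets, on linear axes from 0. The 4 oocyte libraries hold Smarcb1 at 99.4 to 147 CPM, a range that contains 1 embryo library, alpha-amanitin replicate 3 at 125 CPM, and lies above all others.

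Alpha-amanitin left no member called against its own controls. Calls were 0 of 10 higher and 0 of 10 lower, beside 0.0228% and 0.00761% of all tested genes, which are 3 and 1 genes. DESeq2 and limma voom also called 0 members. At an unadjusted edgeR p under 0.05 there were 986 of 13133 tested genes, and 1 of 10 members, Arid1a, a share near that of all genes. Arid1a was at 1922, 1882, 1820 and 1680 CPM with alpha-amanitin, below each of the 4 controls. The share of all tested genes with separate groups in this contrast was not computed. These controls are the libraries that were set against oocytes above, so the Arid1a differences in both contrasts are not separate evidence. With alpha-amanitin the Arid1a log2 difference was -0.28 (SE 0.11, 95% interval -0.51 to -0.05, edgeR adjusted p = 0.524).

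Chd4 was at 606, 598, 372 and 332 CPM with alpha-amanitin, a log2 difference of -0.37 (SE 0.20). Smarca5 was at 281, 229, 279 and 109 CPM, a difference of -0.37 (SE 0.23). In both genes replicate 4 was the lowest library and the groups overlapped. Arid1b was at 766, 789, 450 and 630 CPM, a difference of -0.29 (SE 0.16), and Smarca4 at 163, 172, 171 and 146 CPM, a difference of -0.23 (SE 0.21).

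Chd1 was at 71.1, 71.0 and 89.4 CPM in alpha-amanitin replicates 1, 2 and 4 but at 5.14 CPM, from 28 counts, in replicate 3. Its log2 difference was -0.43 (SE 0.51), and -0.06 without replicate 3. Smarcb1 was at 46.3, 55.7 and 56.3 CPM in replicates 1, 2 and 4 and at 125 CPM in replicate 3, a difference of 0.44 (SE 0.36), and 0.02 without replicate 3. The same shallow library therefore held the lowest Chd1 and the highest Smarcb1 value of its group. Smarcc1 and Ino80 differed by 0.17 (SE 0.39) and 0.05 (SE 0.23) on the log2 scale.

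Smarcd1 varied widely between libraries of this set. Control embryos had 0, 2.10, 26.6 and 1.64 CPM, where 0 counts in replicate 1 allow up to 0.200 CPM (3 counts, counting error only), and alpha-amanitin embryos had 0.644, 8.38, 11.8 and 13.4 CPM. Most of the control mean came from replicate 3. The log2 difference of 0.17 had a standard error of 1.53, and without a single library it lay anywhere from -0.26 to 2.77. Over the 10 members, 4 log2 differences were above 0 and 6 below, with a median of -0.26 against -0.01 over all genes.

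Set against oocytes, alpha-amanitin embryos had 0 of 10 members higher and 0 of 10 lower, beside 0.442% and 1.27% of all tested genes. At an unadjusted edgeR p under 0.05 no member was included, against 1387 of 13133 tested genes. This contrast shares the oocytes with the control comparison and the treated embryos with the alpha-amanitin comparison, so its values are not separate evidence. Arid1a, higher in control embryos, differed here by 0.13 (SE 0.11, edgeR adjusted p = 0.89). Smarcb1 differed by -0.71 (SE 0.36, edgeR adjusted p = 0.531), with 3 of 4 treated embryos below every oocyte, and limma voom called it lower (adjusted p = 0.035). The other 8 members lay between -0.16 and 1.07, and the median over the 10 was -0.05 against -0.04 for all genes.

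**Figure D2:**
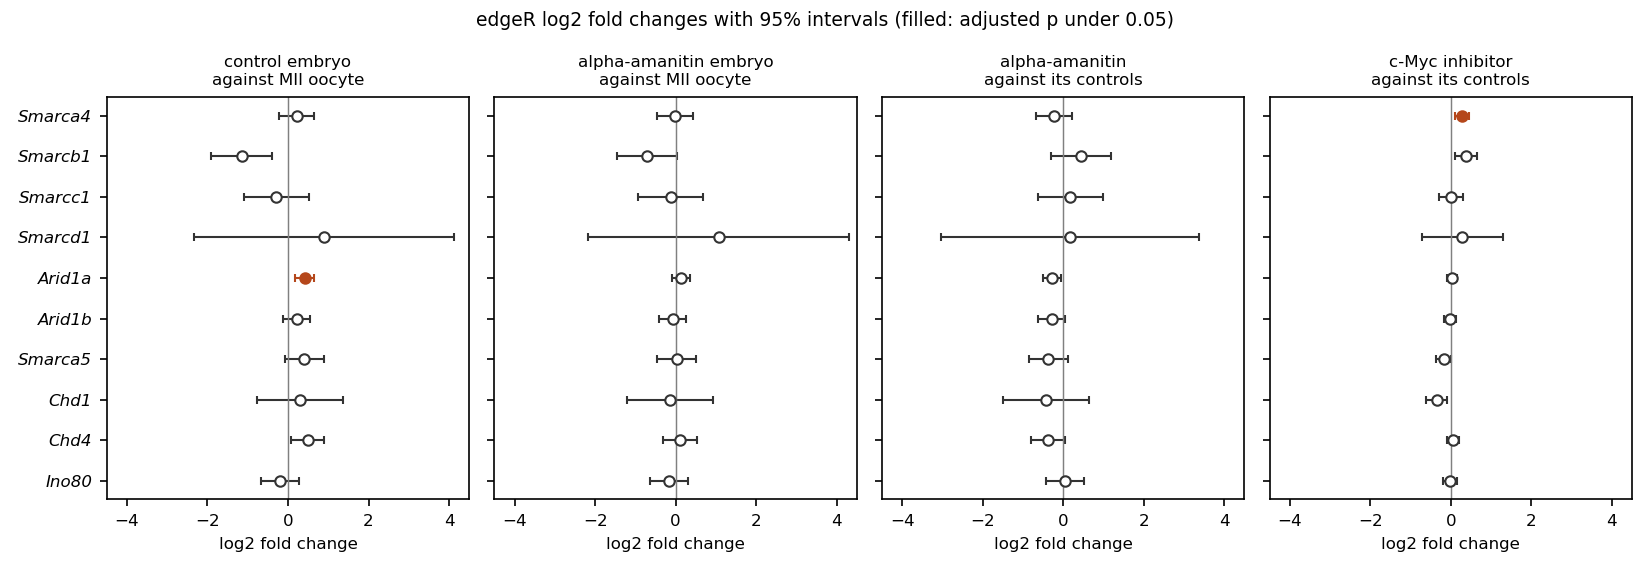
Log2 fold change of each member in 4 contrasts, with 95% intervals from the edgeR fit, filled where the adjusted p was under 0.05. Arid1a against oocytes (0.41) and Smarca4 with the c-Myc inhibitor (0.29) are the 2 filled points, and Smarcd1 has the widest intervals.

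With the c-Myc inhibitor, Smarca4 was the member called changed, and it rose. Over 7 control libraries the lowest, median and highest values were 205, 224 and 282 CPM, and over 7 treated libraries 250, 283 and 335 CPM. The ranges overlapped, and the treated median lay just above the highest control. The means were 238 ± 27.8 and 287 ± 26.4 CPM (SD, n = 7 each). The log2 difference was 0.29 (SE 0.08, 95% interval 0.11 to 0.46, edgeR adjusted p = 0.0279 over 13003 genes). This was 1 of 10 members higher, near the 6.82% of all tested genes called higher, and 0 of 10 lower, beside 4.08%.

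The Smarca4 call was narrow. It was lost when control replicate 1, 5, 7 or 8 was left out (edgeR adjusted p = 0.0754, 0.0628, 0.068 and 0.0523) and when treated replicate 5, 7 or 8 was left out (0.0534, 0.0529 and 0.0722). It was also lost with no filter on low counts (0.0533), with the replicate block (0.0555) and in 1 fit of all 5 groups (0.346). Its log2 difference stayed between 0.25 and 0.33 in all of these fits and the other alternatives. Of the 10 oocyte markers, 6 were called higher and 0 lower in the same contrast, with 7 log2 differences above 0 and 3 below. Their sum was 3904 to 5573 CPM in controls and 5501 to 7268 CPM in treated embryos. The part of the oocyte markers in the Smarca4 difference was not tested. Smarca4 itself was at 131 to 203 CPM in the oocytes of the other set and 124 to 236 CPM in that set's controls. The controls of the c-Myc set were at 205 to 282 CPM. The sets share no library, so set and stage cannot be told apart across them.

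Smarcb1 was at 47.2, 55.1 and 74.1 CPM (lowest, median, highest) in controls and 56.5, 74.8 and 89.6 CPM in treated embryos. Its log2 difference of 0.37 (SE 0.13, 95% interval 0.11 to 0.64) missed the threshold (edgeR adjusted p = 0.0665). Leaving out treated replicate 2 or control replicate 8 brought it under the threshold (0.0334 and 0.0243). Its mean in the oocytes of the other set was 116 CPM (n = 4, range 99.4 to 147), its highest of the 5 groups.

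Chd1 moved the other way. It was at 56.8, 82.7 and 106 CPM in controls and 51.3, 62.1 and 74.4 CPM in treated embryos, with a log2 difference of -0.35 (SE 0.13, 95% interval -0.62 to -0.09, edgeR adjusted p = 0.0821). DESeq2 called it lower (adjusted p = 0.0406), as did edgeR without control replicate 4 (0.0265). Smarca5 was at 266, 302 and 400 CPM in controls and 239, 274 and 317 CPM in treated embryos, a difference of -0.18 (SE 0.09, edgeR adjusted p = 0.262). The ranges of both genes overlapped between groups. For Chd1 the control median lay above the highest treated library, and for Smarca5 it lay below.

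The largest SWI/SNF subunits were measured most tightly and differed little. Arid1a was at 1653, 1997 and 2058 CPM in controls and 1838, 1950 and 2040 CPM in treated embryos. The 95% interval of its log2 difference ran from -0.09 to 0.16. Arid1b was at 703, 748 and 818 CPM in controls and 668, 728 and 841 CPM in treated embryos, with an interval of -0.16 to 0.13. Chd4 had an interval of -0.10 to 0.21 and Ino80 one of -0.20 to 0.14.

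Smarcc1 differed by 0.01 (95% interval -0.28 to 0.31), with a direction that turned between fits. Its first exons overlap those of Dhx30 on the opposite strand. No source used here gives the strand setting of the counting, so reads from the shared bases of these genes cannot be told apart. Dhx30 had group means of 67.9 to 92.8 CPM. Smarcd1 differed by 0.28 (SE 0.49), from 3.83 ± 2.00 to 4.63 ± 2.32 CPM (n = 7 each). The median over the 10 members was 0.02, against -0.00 for all genes.

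The inhibitor and alpha-amanitin effects were compared directly, as the difference of the log2 changes in each set. Calls were 0 of 10 members higher and 0 of 10 lower, beside 0.678% and 0.367% of 15790 tested genes. At an unadjusted edgeR p under 0.05 there were 3 of 10 members and 2728 of 15790 tested genes. Smarca4 had the largest difference of those 3, 0.53 (SE 0.19, 95% interval 0.13 to 0.92, edgeR adjusted p = 0.154). Its log2 change was 0.29 with the inhibitor and -0.23 with alpha-amanitin in the separate fits. Without control replicate 3 of the amanitin set it was 0.69 and passed (0.0347). Chd4 differed by 0.43 (SE 0.19, edgeR adjusted p = 0.24). Arid1a differed by 0.33 (SE 0.11, edgeR adjusted p = 0.126), and both DESeq2 and limma voom called it (adjusted p = 0.0437 and 0.0486).

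Ordered by mean over the 5 groups, neighbouring groups overlapped in range for every member but Smarcb1. Its oocyte values stood clear of the next group, although alpha-amanitin replicate 3 lay within their range. The share of all tested genes with such a gap was not computed. Smarca4 ran from 163 ± 11.7 CPM with alpha-amanitin (n = 4) through oocytes (166 ± 29.4) and the controls of the amanitin set (194 ± 49.8, n = 4) to the c-Myc set controls and the inhibitor group. Arid1a had its highest mean in the amanitin set controls, 2250 ± 183 CPM, and 1908 ± 157 CPM in the c-Myc set controls (n = 7). Set and control group cannot be told apart here, because the sets share no library.

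Over all 26 libraries, the log2 levels of Arid1b and Chd1 had a Pearson correlation of 0.75, those of Smarca4 and Chd4 0.74 and those of Smarca5 and Chd4 0.73. The lowest was -0.49, between Smarcb1 and Chd1. These libraries share groups, sets and depth differences, so the values describe them and carry no test. Among 16318 genes the profile most like that of Smarca4 was D6Ertd527e (0.88), then Srsf4 (0.84), a splicing factor, and Ddi2 (0.84). For Smarca5 they were Fundc1 (0.83), Mast4 (0.80) and Ankrd17 (0.79).

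A further 97 genes of the same remodeller families were listed, and 92 of them passed the filter on low counts in each set. With the c-Myc inhibitor 6 were higher and 11 lower, beside 6.82% and 4.08% of all tested genes, with a median of -0.09 over the list against -0.00 for all genes. The share higher was near that of all genes. By family, SWI/SNF had 0 higher and 2 lower of 20, ISWI 3 and 3 of 9, CHD and NuRD 1 and 3 of 19, INO80, SRCAP and TIP60 2 and 2 of 30, and other Snf2 motors 0 and 1 of 14. The counts fell to 1 higher and 2 lower in 1 fit of all 5 groups, and the 11 lower to 6 with the replicate block and 7 without treated replicate 5.

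Of these, 9 kept their edgeR call whichever single library was left out. Pole3, a histone-fold subunit of the ISWI complex CHRAC, rose by 0.71 on the log2 scale (adjusted p = 0.000342, edgeR), from 86.3 ± 14.0 to 140 ± 25.7 CPM. Nfrkb (INO80), Baz1a (the partner of Smarca5 in CHRAC and ACF) and Gatad2a (NuRD) rose by 0.38, 0.40 and 0.34. Chd6 and Ercc6l fell by 0.57 and 0.69, and Baz2a, which partners Smarca5 in the nucleolar complex NoRC, fell by 0.30. Smarca2 fell by 0.28, from 427 ± 24.4 to 348 ± 40.7 CPM, opposite in sign to Smarca4. Epc1 of the TIP60 complex fell by 0.27.

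The other 8 calls, Tfpt and Cecr2 higher and Hdac2, Baz2b, Smarcc2, Epc2, Chd7 and Bptf lower, were each lost in 3 to 11 of the 14 fits that leave out a library. Each of the 14 libraries ended at least 1 of them, and the edgeR adjusted p then ran from 0.0504 to 0.114. In the amanitin set, 0 of the 92 genes were called with alpha-amanitin in either direction, by edgeR, DESeq2 or limma voom. For the difference of effects 1 of 93 was called: Nfrkb, 0.96 (edgeR adjusted p = 0.0181), lost without control replicate 4 of the amanitin set (0.0545).

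From oocyte to control embryo, 8 of the 92 were higher and 0 lower, beside 1.11% and 1.78% of all tested genes, with a list median of 0.07 against -0.03 for all genes. The 8 became 3 without oocyte replicate 1 or 2 or control replicate 4, 4 without oocyte replicate 4, and 13 in 1 fit of all 5 groups. Genes were called lower in some other fits: Actr5, an INO80 subunit, by DESeq2 and limma voom, 3 genes (Ruvbl2, Actr5 and Shprh) in the fit of the 8 libraries alone, 5 (Mta1, Hdac2, Cdk2ap1, Actr5 and Btaf1) in 1 fit of all 5 groups, and Ruvbl2 without alpha-amanitin replicate 3. Baz2a rose by 0.71 (edgeR adjusted p = 0.00817), from 488 ± 66.2 to 803 ± 118 CPM (n = 4 each), and kept its call without any single library. Smarca2 rose by 0.83, from 200 ± 29.1 to 358 ± 62.4 CPM, with the call lost without oocyte replicate 2 or 4 (edgeR adjusted p = 0.0531 and 0.0579). Chd8, a CHD motor, rose by 0.61 and lost its call without oocyte replicate 2 (0.0531), and Dpf3, a reader subunit of SWI/SNF, rose by 1.04 and lost it without oocyte replicate 1 or control replicate 4 (0.0591 and 0.056). Chd7, Bptf, Epc1 and Ss18l1 rose by 0.74, 0.70, 0.61 and 0.81, and each lost its call in 4 or 5 of the 8 such fits. Chd8 (0.58) and Baz2a (0.58) were also the 2 called higher in alpha-amanitin embryos against oocytes, and lost that call in 5 and 7 of 8 fits.

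Smarca2, Baz2a, Epc1, Chd7 and Bptf were called higher in control embryos than in oocytes and lower with the c-Myc inhibitor than in its controls. These contrasts share no library. The share of all tested genes with this pair of calls was not computed. Baz2a kept both calls whichever single library was left out. Smarca2 and Epc1 lost the call against oocytes in some such fits, and Chd7 and Bptf lost each call in some. Smarca4 had positive log2 differences in both, 0.21 and 0.29, of which the second was called.

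**Figure D3:**
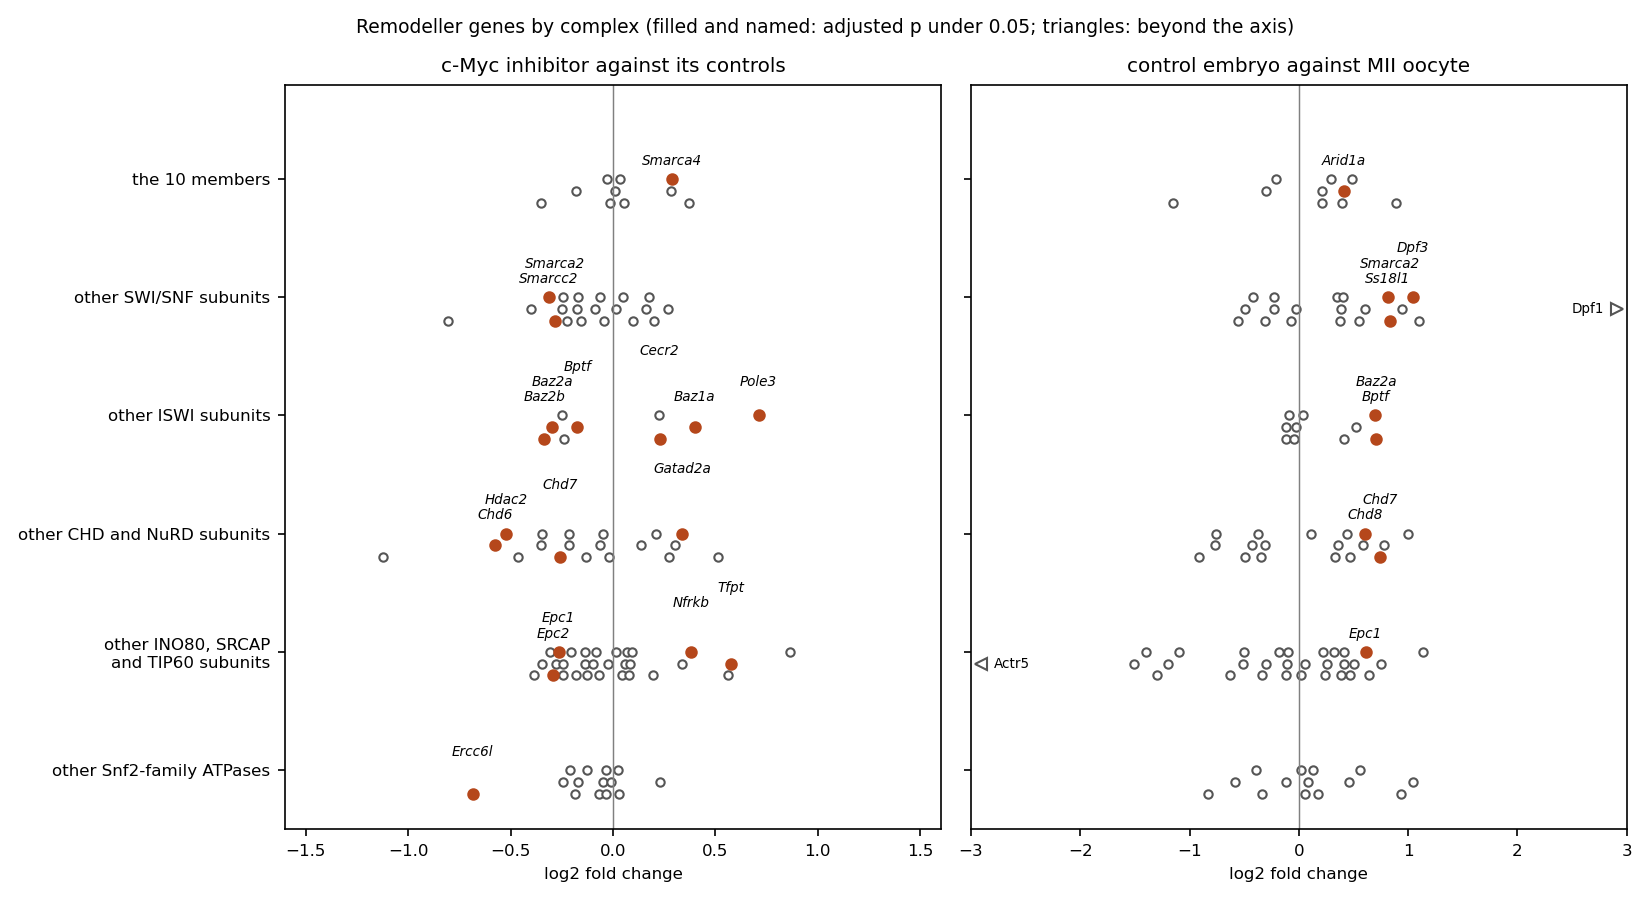
Log2 fold change of the members and of 92 other remodeller genes by family, with the c-Myc inhibitor (left) and from oocyte to control embryo (right), filled and named where the edgeR adjusted p was under 0.05. With the inhibitor called genes lie on both sides of 0, and from the oocyte the 9 genes called in this edgeR fit, Arid1a among them, lie above 0. Dpf1 and Actr5, each at or near 0 CPM in oocytes or in control embryos, are drawn as triangles beyond the right-hand axis.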

How the data were processed

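The deposited table holds gene counts for 26 libraries of mouse MII oocytes and one-cell embryos. Per the labels' protocols, RNA was amplified with a SMARTer stranded total RNA kit. The submitters' processing notes list cutadapt 1.7.1 (a read trimmer), STAR 2.5.0a (an aligner) and the GRCm38 build. No source used here names the counting tool, its strand setting or its annotation. Symbols, positions and exon lengths were taken from GENCODE vM21 (55141 of 55401 identifiers matched). The 260 unmatched identifiers held 0.00563% of counts and were kept.

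Differences were tested on the counts as deposited by the authors with edgeR 4.0.16 in R 4.3.3 (TMM scaling, filterByExpr with a minimum count of 10 and total of 15, quasi-likelihood F test, Benjamini-Hochberg adjustment over all tested genes, threshold 0.05). The c-Myc set (14 libraries) and the amanitin set (12) were fitted separately, and the difference of effects over both sets. Alternatives were DESeq2 1.42.0, limma 3.58.1 with voom, RLE scaling, no filter, a replicate block, 1 fit of all groups and leaving out each library. Fits of 8 libraries alone and without the shallowest library were chosen after seeing the data. On simulated counts, with changed genes drawn at random from all tested genes, edgeR recovered 52% of 2-fold changes with the inhibitor. From oocyte to control embryo it recovered 7%. The members, lists and the rule for named genes (all members, and other remodeller genes past the threshold) were chosen with earlier results of these data known. The text also names the genes most like Smarca4 and Smarca5 by correlation. Depth was 5371602 to 31540627 counts per library. Within each group, no library pair agreed within sampling noise. Pairs from different groups were not compared.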

Additional observations from a re-analysis of the deposited data

Results flagged for a closer look

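A pair of member values stood far from the other libraries of their group, by a gap larger than Dixon's 95% critical value for 4 samples. Smarcb1 was at 125 CPM in alpha-amanitin replicate 3, where the other 3 libraries held 46.3 to 56.3 CPM. That library is the shallowest of the study, with 5371602 counts, and had the lowest Spearman correlation with its group. Smarcd1 was at 26.6 CPM in control replicate 3 of the amanitin set, from 589 counts, where the others held 0 to 2.10 CPM. Groups of all 10 members were tested, 50 in all, and chance flags about 1 in 20 groups.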

How the results depend on the processing

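Of 940 recomputed member log2 differences, 846 kept their direction and their side of the threshold, 62 changed sign, 19 lost a call and 13 gained one, and none of those that changed sign was called in either fit. With the c-Myc inhibitor, the members higher went from 1 to 0 with no filter, with the replicate block and in 1 fit of all 5 groups, and ranged from 0 to 2 when single libraries were left out. The members lower went from 0 to 1 with DESeq2, and from 0 to 1 over single libraries left out. From oocyte to control embryo, the members higher went from 1 to 0 with the replicate block and to 2 in 1 fit of all 5 groups, and were 0 to 0 without single libraries. The members lower went from 0 to 1 with limma voom, in 1 fit of all 5 groups, in the fit of 8 libraries alone and without the shallowest library (the last 2 chosen after seeing the data). In alpha-amanitin embryos against oocytes, limma voom gave 1 member lower. For the difference of effects, DESeq2 and limma voom each gave 1 member higher, and single libraries left out gave 0 to 1. Arid1b in oocytes was at 715 CPM on raw totals against 698. The cause of these changes was not tested.

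Sign changes, on the log2 scale, were these. With the inhibitor, Smarcc1 was -0.0072 with DESeq2, -0.0071 with RLE scaling and -0.0013 in 1 fit of all 5 groups, and Ino80 was 0.010 with the replicate block. With alpha-amanitin, Ino80 was -0.021 with limma voom. From oocyte to control embryo, Smarcd1 was -1.35 with limma voom and -1.34 with the replicate block. In alpha-amanitin embryos against oocytes, Smarca4 was 0.0098 with DESeq2 and 0.010 with RLE scaling, Smarca5 -0.058 with limma voom and -0.0018 with the replicate block, and Arid1b 0.028 and Chd1 0.035 with limma voom. For the difference of effects, limma voom gave 0.24 for Smarcb1, -1.17 for Smarcd1, -0.025 for Chd1 and 0.0099 for Ino80, and the replicate block -1.89 for Smarcd1.

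Signs also turned in fits without single libraries. With the inhibitor the ranges were -0.044 to 0.12 for Smarcc1, -0.046 to 0.0094 for Arid1b and -0.078 to 0.0035 for Ino80. With alpha-amanitin they were -0.081 to 0.36 for Smarcc1, -0.26 to 2.77 for Smarcd1 and -0.13 to 0.16 for Ino80. From oocyte to control embryo, Smarcd1 ran from -1.73 to 1.32. In alpha-amanitin embryos against oocytes they were -0.13 to 0.059 for Smarca4, -0.13 to 0.25 for Smarca5, -0.19 to 0.069 for Arid1b, -0.41 to 0.23 for Chd1 and -0.049 to 0.24 for Chd4. For the difference they were -0.037 to 0.34 for Smarca5, -0.35 to 0.35 for Smarcb1, -0.34 to 0.098 for Smarcc1, -2.49 to 0.53 for Smarcd1, -0.29 to 0.34 for Chd1 and -0.20 to 0.094 for Ino80.

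Counts over all genes differed more: 266 higher and 115 lower with the inhibitor in 1 fit of all 5 groups and 701 and 291 with the replicate block, 91 and 32 with alpha-amanitin by DESeq2, and 572 and 837 from oocyte to control embryo in 1 fit of all 5 groups. Among the other remodeller genes, the 11 lower with the inhibitor became 6 with the replicate block, and the 2 higher in alpha-amanitin embryos against oocytes became 8 with DESeq2 and 10 in 1 fit of all 5 groups. The replicate block ended the calls of Smarca4 with the inhibitor (edgeR adjusted p = 0.0555) and Arid1a from oocyte to control embryo (0.0891). Same-numbered libraries did not deviate together. Over 6 pairs of the c-Myc set the correlation of deviations from group means ran from -0.03 to 0.04. Of the 6, 1 matched its own number best. In the amanitin set, with 4 pairs each, it was -0.03 to 0.04 between controls and alpha-amanitin and -0.01 to 0.01 between oocytes and controls. Between oocytes and alpha-amanitin all 4 were above 0, at 0.006 to 0.05. The numbers were not taken to pair the libraries. Depth was lowest in alpha-amanitin replicate 3. On simulated counts edgeR recovered 7% to 11% of 2-fold and 26% to 30% of 4-fold changes in the contrasts of the amanitin set. The changed genes were drawn at random from all tested genes, so the rates describe tested genes at large and not the members. Members differ in how tightly they were measured. With alpha-amanitin the 95% interval was -0.51 to -0.05 for Arid1a and -3.03 to 3.37 for Smarcd1.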
